A study of Mus musculus with 12 samples.

Results

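Metallothioneins and the proteins that move zinc across membranes were followed gene by gene on lung arrays of obese db/db mice 24 h after O3. The group held 7 genes: the metallothioneins Mt1, Mt2 and Mt3, the metal-sensing transcription factor Mtf1, the importers Slc39a14 and Slc39a8, and the exporter Slc30a1. They were picked by symbol, with earlier results of these same arrays known, and are 7 of 21521 genes tested. Each was read by a single probe set that the array annotation assigns to that gene alone, so no choice between probe sets had to be made.

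RNA came from lungs (the labels name the left lung) of female mice on a C57BL/6 background, 10 weeks old, 1 Affymetrix array per sample. A mutant leptin receptor makes db/db mice obese. Of the 12 arrays, 8 came from db/db mice that received an isotype control antibody, 4 after air and 4 after O3. A further 3 came from db/db mice that received anti-IL-17A, which blocks that cytokine, and O3 (replicates 1, 2 and 4 of the labels), and 1 came from a wild-type (WT) mouse after isotype antibody and O3. Exposure was to 2 ppm O3 for 3 h, with the lungs taken 24 h later. No WT array after air was analysed here, every air-exposed mouse had received isotype antibody, and the dose and timing of the antibodies were not given in the sources used here. It is not stated whether each array is a separate animal, so p values measure the spread between arrays only.

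Signals are on the log2 scale after robust multi-array averaging (RMA), so a difference of 1 is a doubling. The level of one gene is not set against that of another, since each probe set binds with its own strength. The median signal of an array was 4.75 to 4.90. Markers of lung cells were high on all 12 arrays: Sftpc (alveolar type 2 cells) read 11.40 or more, Scgb1a1 (club cells) 10.94 to 11.60 and Pecam1 (endothelium) 10.25 to 10.77. Anti-IL-17A replicate 1 stood apart, with a mean correlation of 0.947 with the other arrays against 0.972 to 0.982 for each of the others. Ucp1, a marker of brown fat, read 10.12 to 10.53 on 3 arrays (anti-IL-17A replicate 1, O3 replicate 4 and air replicate 3) and 3.47 to 5.08 on the other 9. Calls after O3 were also counted without the arrays high in Ucp1. Where this changed a count in the fit of the air and isotype O3 arrays alone, the count is given.

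Metallothioneins are small cysteine-rich proteins that bind zinc, copper and cadmium and can react with oxidants. Zinc that enters the cell through importers of the ZIP (Slc39) family, or is set free from protein thiols, binds Mtf1, which then activates genes through short metal response elements in their promoters. Mt1 and Mt2 are its classical targets, and Slc30a1, the plasma membrane exporter ZnT1, is another. Mt1 and Mt2 also respond to glucocorticoids and to cytokines that signal through STAT3, and Slc39a14 (ZIP14) is induced by IL-6 in liver. Slc39a8 (ZIP8) imports zinc and manganese and is abundant in lung.

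Promoter windows from RefSeq (GRCm38.p6, 250 bases before to 50 after the annotated start) were at hand for 6 of the 7 genes, Slc39a14 being the exception. The core of the metal response element was searched on both strands as TGCACNC or TGCGCNC, where N is any base. The windows of Mt2, Mt1 and Slc30a1 held 4, 3 and 2 matches, that of Mt3 held 1 and that of Mtf1 none. Slc39a8, which has a pair of annotated starts, had none in one window and 1 in the other. Of all 32851 windows of this length, 25.7% held at least 1 match, 7.11% at least 2 and 1.97% at least 3. The windows with more than 1 match are shown, all from the plus strand, because they belong to genes described as responding to metal, of which Mt2 had the largest difference after O3 and Slc30a1 nearly none. They run 280 bases, up to 30 bases after the start, with each match in capitals. The Mt2 window is chr8:94172368-94172647, the Mt1 window chr8:94178839-94179118 and the Slc30a1 window chr1:191906531-191906810.
Mt2: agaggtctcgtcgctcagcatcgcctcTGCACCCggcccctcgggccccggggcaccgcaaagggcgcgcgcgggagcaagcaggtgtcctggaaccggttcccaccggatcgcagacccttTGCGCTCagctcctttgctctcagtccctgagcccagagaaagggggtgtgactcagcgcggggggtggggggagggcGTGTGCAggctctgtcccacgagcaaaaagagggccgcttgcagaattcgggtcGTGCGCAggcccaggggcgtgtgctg
Mt1: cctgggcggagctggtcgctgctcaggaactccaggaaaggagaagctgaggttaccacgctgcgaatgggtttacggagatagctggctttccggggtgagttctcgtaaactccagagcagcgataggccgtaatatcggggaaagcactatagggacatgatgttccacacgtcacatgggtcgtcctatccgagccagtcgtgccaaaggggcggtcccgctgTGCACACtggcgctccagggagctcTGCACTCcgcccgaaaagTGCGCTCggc
Slc30a1: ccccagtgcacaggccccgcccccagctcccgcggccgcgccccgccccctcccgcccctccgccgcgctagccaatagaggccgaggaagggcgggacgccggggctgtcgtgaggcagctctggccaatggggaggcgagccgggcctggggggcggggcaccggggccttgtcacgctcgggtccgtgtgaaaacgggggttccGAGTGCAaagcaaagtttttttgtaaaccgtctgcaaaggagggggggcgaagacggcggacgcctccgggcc
Positions were counted from the annotated start, where -1 is the base just before it, and other start sites of these genes were not examined. The leftmost bases of the Mt2 matches lay at -223, -128, -50 and 5, and those of the Mt1 matches at -23, 3 and 21. In Slc30a1 they lay at -43 and 31, the latter beyond the bases shown. An antioxidant response element (TGACNNNGC, in 12.4% of all windows) was found in Mt2 and Slc30a1 and in 1 window of Slc39a8. Neither the STAT site TTCNNNGAA, present in 8.30% of all windows, nor a full glucocorticoid element was found in any of these windows. The latter is present in only 3 of all 32851 windows, so its absence carries almost no information. These absences say only that these letters do not occur there.

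Among db/db mice on isotype antibody, Mt2, Mt1, Slc39a14 and Slc39a8 had higher signals on all 4 O3 arrays than on any air array, by 5.10-fold, 2.15-fold, 2.76-fold and 1.34-fold. The fold of Slc39a14 is taken over an air signal below the array median. Mt3 lay lower on all O3 arrays, Mtf1 was higher with overlapping arrays, and the exporter Slc30a1 had nearly the same signal after O3 as after air. Whether a member passed the test depended on the fit. With all 12 arrays sharing one estimate of the spread, 0 of 7 members passed an adjusted p under 0.05 (limma), where 1.04% of all genes did (0.595% higher and 0.441% lower), although 6 of 7 had an unadjusted p under 0.05, as did 15.1% of all genes. In a fit restricted to these 8 arrays, 4 of 7 rose (Mt1, Mt2, Slc39a8 and Slc39a14) and none fell, where 7.75% of all genes passed, 4.85% rising and 2.9% falling, and the same 6 had an unadjusted p under 0.05, as did 24.0% of all genes. With arrays weighted by their quality in the 12-array fit 5 of 7 rose (7.17% of all genes), with anti-IL-17A replicate 1 left out 3 of 7 (2.22%), and at an adjusted p under 0.1 there were 2 (2.95% of all genes, 1.71% higher). Without the 3 arrays high in Ucp1, the 12-array design gave 0 genes higher and 1 lower of all 21521. None of the rises named below for the 12-array fit was therefore kept without them, and at most 1 of the falls. With 1 of the 8 air and isotype O3 arrays left out in turn, this design gave 0 to 11 genes higher and 0 to 3 lower. The groups of arrays did not overlap for 4 members that were higher and 1 that was lower, against 8.81% and 6.62% of all genes. The median difference over the 7 genes was 0.42, against 0.00 over all genes. Since the genes were chosen with these results in view, the counts describe them and are not independent evidence.

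**Figure D1:**
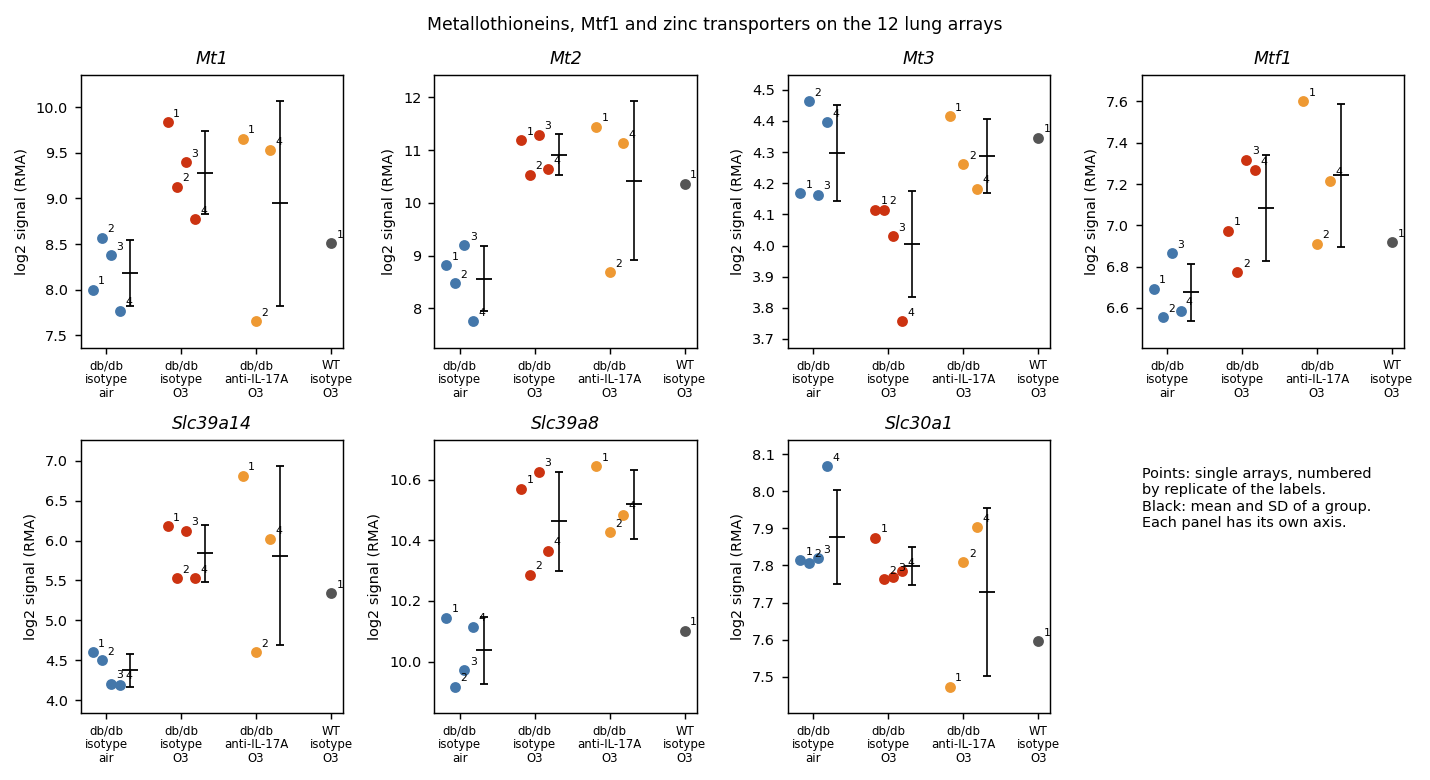
Log2 signal of each member on the 12 arrays by group, with single arrays as points numbered by replicate and the mean and SD of a group in black; each panel has its own axis. Mt2, Mt1, Slc39a14 and Slc39a8 lay higher on all 4 db/db isotype O3 arrays than on the 4 air arrays, and anti-IL-17A replicate 2 read 8.69 for Mt2 and 7.65 for Mt1.

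Mt2 had the largest difference of the 7 genes. Its signal was 8.82, 8.48, 9.20 and 7.76 on air replicates 1 to 4, and 11.19, 10.53, 11.29 and 10.64 on O3 replicates 1 to 4. The lowest O3 array lay 1.34 above the highest air array. The mean rose from 8.56 ± 0.61 to 10.91 ± 0.38 (SD, n = 4 each) in the fit of the 8 arrays, by 2.35 (SE 0.30, adjusted p = 0.0037). In the 12-array fit the same difference had an SE of 0.54, a 95% confidence interval of 1.15 to 3.56 and an adjusted p of 0.0729 (limma). Exact permutation of the arrays between groups gave a two-sided p of 0.0286, the smallest that 4 against 4 arrays allow.

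Mt1, its neighbour on chromosome 8 and the other broadly expressed metallothionein, showed a smaller difference. Air replicates 1 to 4 read 8.0, 8.57, 8.38 and 7.77, and O3 replicates 1 to 4 read 9.84, 9.13, 9.40 and 8.77. The groups did not overlap, but the lowest O3 array lay only 0.20 above the highest air array. The difference was 1.11 (SE 0.24, adjusted p = 0.0297 in the fit of the 8 arrays; SE 0.41, adjusted p = 0.233 in the 12-array fit, both limma), with an exact permutation p of 0.0286. This call was the least firm of those of the metallothioneins: with 1 of the 8 arrays left out in turn, Mt1 stayed under 0.05 in 3 of 8 fits, those without O3 replicate 2, O3 replicate 4 or air replicate 2 (adjusted p 0.0182 to 0.0859, limma), whereas Mt2 did so in 8 of 8 (0.00436 to 0.0175).

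Mt3, best known as the metallothionein of the brain, lay below the array median in every group. It read 4.17, 4.46, 4.16 and 4.39 on the air arrays and 4.11, 4.11, 4.03 and 3.76 on the O3 arrays. No O3 array reached the lowest air array, yet the gap between the groups was 0.05. The difference of -0.29 (95% confidence interval -0.54 to -0.05 in the 12-array fit) passed neither fit (adjusted p = 0.240 and 0.147, limma).

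Mtf1, the transcription factor that senses zinc, read 6.69, 6.55, 6.86 and 6.59 after air and 6.97, 6.77, 7.32 and 7.27 after O3. O3 replicate 2 fell below air replicate 3, so the groups overlapped. The difference was 0.41 (95% confidence interval 0.04 to 0.77, adjusted p = 0.269 in the 12-array fit and 0.101 in the fit of the 8 arrays, limma; exact permutation p = 0.0571). When O3 replicate 2 was left out of the latter fit, Mtf1 passed (adjusted p = 0.0268, limma).

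Of the importers, Slc39a14 differed most. It read 4.60, 4.50, 4.21 and 4.19 on air replicates 1 to 4, below the array median on average, and 6.18, 5.53, 6.12 and 5.53 on O3 replicates 1 to 4. The groups were separated by 0.93, and the rise in the fit of the 8 arrays was 1.47 (SE 0.18, adjusted p = 0.00296), a call kept with any 1 of the 8 arrays left out (0.00301 to 0.0125). In the 12-array fit the SE was 0.39 and the adjusted p 0.103 (limma). The exact permutation p was 0.0286.

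Slc39a8, the importer of zinc and manganese, differed by little but evenly. It read 10.14, 9.92, 9.97 and 10.11 after air and 10.57, 10.29, 10.63 and 10.37 after O3. The arrays did not overlap, with a gap of 0.14. The difference was 0.42 (SE 0.10 in both fits, adjusted p = 0.0798 with 12 arrays and 0.0357 with 8, limma; exact permutation p = 0.0286), and the call in the fit of the 8 arrays was kept in 1 of 8 fits with an array left out, that without O3 replicate 2 (0.0186 to 0.0968).

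Slc30a1, the exporter with 2 metal response element matches in its promoter window, did not share this pattern. It read 7.81, 7.81, 7.82 and 8.07 after air and 7.88, 7.76, 7.77 and 7.78 after O3. The O3 arrays spread over both sides of the 3 lower air arrays. The difference was -0.08, with a 95% confidence interval of -0.31 to 0.15 in the 12-array fit (adjusted p = 0.787, limma; exact permutation p = 0.371). The interval holds none of the point differences of Mt1, Mt2, Slc39a14, Slc39a8 or Mtf1. That of Mtf1 in the same fit, 0.04 to 0.77, overlaps it, and no contrast between genes was tested.

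**Figure D2:**
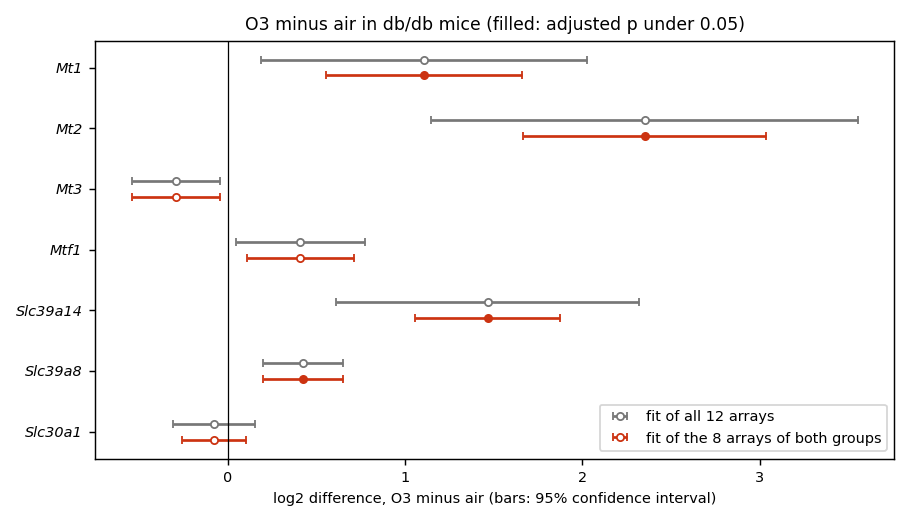
Log2 difference between the db/db isotype O3 and air arrays for each member, with 95% confidence intervals, in the fit of all 12 arrays (grey) and of the 8 arrays of both groups (red); filled points passed an adjusted p under 0.05. The differences are the same in both fits (2.35 for Mt2), while the intervals of Mt1, Mt2 and Slc39a14 narrow in the fit of 8 arrays.

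Within the O3 group the same arrays were high and low for some members only. O3 replicates 1 and 3 were the highest pair of arrays for Mt1, Mt2, Slc39a14 and Slc39a8, and replicates 2 and 4 the lowest pair. The highest pair was replicates 3 and 4 for Mtf1, 1 and 4 for Slc30a1 and 1 and 2 for Mt3. How many other genes share an order was not counted. O3 replicate 4 was 1 of the arrays with high Ucp1. With it and air replicate 3 left out, the fit of both groups gave 2.65 for Mt2 (adjusted p = 0.00643), 1.34 for Mt1 (0.0316) and 1.51 for Slc39a14 (0.00894, limma), and 3 of 7 members rose, where 2.14% of all genes did. Slc39a8 was no longer among them. Other markers moved with O3 as well. Of 7 club cell markers 3 fell in the 12-array fit (0.441% of all genes fell), 5 in the fit of the 8 arrays (2.9%) and 3 in that fit without the arrays high in Ucp1, their mean signal being 10.07 to 10.11 after O3 and 10.68 to 10.86 after air. Of 8 ciliated cell markers 1, 5 and 5 fell in these fits, with mean signals of 5.45 to 5.95 and 6.75 to 7.01. In whole lung, fewer cells of a type and less RNA per cell cannot be told apart, and the part of these markers in the members' differences was not tested. None of the 16 adipocyte, 7 alveolar type 2, 6 endothelial or 8 neutrophil markers passed either fit, although 3 of the alveolar type 2 markers were lower without overlap. Their median differences were -0.15, -0.10, -0.10 and -0.94. The mean neutrophil marker signal spread from 6.57 to 9.28 on air arrays and from 6.70 to 7.58 on isotype O3 arrays, so a change in these markers is left undecided. In the fit of the 8 arrays 1 of 7 alveolar macrophage markers fell (Fabp1) and 1 of 8 markers of monocytes and interstitial macrophages rose (Cd14). Without the arrays high in Ucp1, Ear2 fell too, Cd14 did not pass, and 1 adipocyte marker, Thrsp, fell.

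The wider families put the importers and the exporters side by side. All 14 ZIP genes and 10 ZnT genes were measured. In the fit of the 8 arrays 4 ZIP genes rose and none fell, where 4.85% of all genes rose. Of the 10 ZnT genes 0 passed in either direction, where 7.75% of all genes passed, a share that gives few calls or none among 10 genes. No gene of either family passed in the 12-array fit. Besides Slc39a14 and Slc39a8, these were Slc39a2, from 4.72 ± 0.18 to 5.36 ± 0.30 (0.64, SE 0.15, adjusted p = 0.0393), and Slc39a7, the zinc channel of the endoplasmic reticulum, from 6.44 ± 0.10 to 6.81 ± 0.15 (0.37, SE 0.09, adjusted p = 0.0475; SD, n = 4, limma). Without the arrays high in Ucp1, Slc39a14 was the 1 ZIP gene left. The arrays did not overlap and were higher for 5 of 14 ZIP genes and for 0 of 10 ZnT genes, against 8.81% of all genes. The median difference was 0.25 over the ZIP genes and 0.05 over the ZnT genes, and the contrast between the families was not tested.

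Other family members were picked for a bright probe set, which does not order their RNA levels. The importer Slc39a10 read 9.06 ± 0.19 after air and 9.10 ± 0.27 after O3, and Slc39a4, which takes up dietary zinc in the gut, 7.42 ± 0.39 and 7.81 ± 0.59 (SD, n = 4). The exporters Slc30a4 (8.60 ± 0.18 and 9.02 ± 0.22), Slc30a9 (8.62 ± 0.08 and 8.50 ± 0.13) and Slc30a7 (7.82 ± 0.13 and 8.01 ± 0.10) did not pass either fit. Slc30a4 came nearest, at a difference of 0.42 (adjusted p = 0.0882 in the fit of the 8 arrays, limma).

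**Figure D3:**
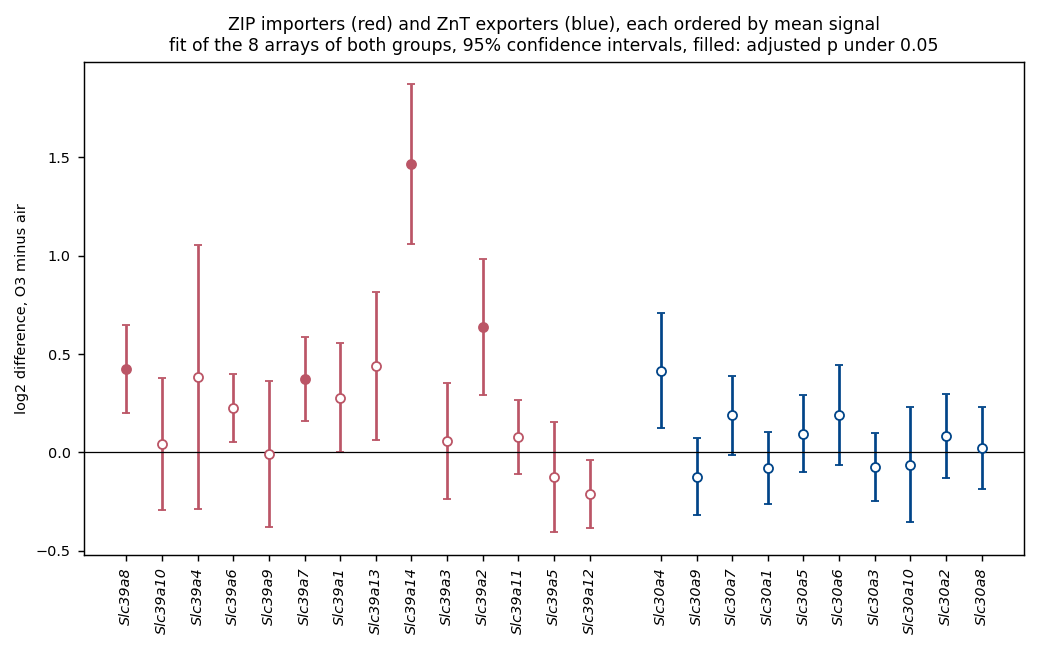
Log2 difference, O3 minus air, of the 14 ZIP importers (red) and the 10 ZnT exporters (blue) in the fit of the 8 db/db isotype arrays, each family laid out by the brightness of its probe sets, which does not order RNA levels, with 95% confidence intervals; filled points passed an adjusted p under 0.05. Slc39a14 stands at 1.47, and 4 ZIP genes and no ZnT gene are filled.

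Other genes described as responding to Mtf1 or to metal were read from a list of 10 measured genes that includes Mt1, Mt2 and Slc30a1. In the fit of the 8 arrays 5 of them rose, Mt1 and Mt2 included, and none fell, and in the 12-array fit 1 rose, Pgf, where 4.85% and 0.595% of all genes rose. The count of 5 was the same without the arrays high in Ucp1. Pgf, a growth factor for vessels, went from 4.55 to 6.12 (1.58, adjusted p = 0.0392 with 12 arrays and 0.00853 with 8, limma). Its air mean lay below the array medians of 4.75 to 4.90. Hmox1, the inducible heme oxygenase, differed by 1.22 (adjusted p = 0.181 and 0.0139), and Gclc, the catalytic subunit of the first enzyme of glutathione synthesis, by 0.79 (0.0742 and 0.0029, limma). Both are also well known targets of the oxidant sensor NRF2. Slc39a10 and Slc30a1, the other zinc transporters of this list, did not pass, at 0.04 and -0.08.

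Signals that act on Mt1, Mt2 and Slc39a14 in other tissues were looked at in the same way. Of 14 genes of the IL-6 and STAT3 response, 8 rose in the fit of the 8 arrays and 3 in the 12-array fit, where 4.85% and 0.595% of all genes rose, none fell, and the median difference was 0.72. Without the arrays high in Ucp1 the former count was 5, with Socs3, Pim1 and Timp1 no longer passing. Il6 itself differed by 3.34 (adjusted p = 0.0259 with 12 arrays, limma), Timp1 by 3.38 (0.0471) and Osmr, the oncostatin M receptor, by 0.76 (0.0392). The air signals of Il6, 3.43 to 4.15, lay below every array median. Of 12 glucocorticoid-responsive genes 4 rose in the fit of the 8 arrays and 1, Lcn2 (1.71, adjusted p = 0.0464), in the 12-array fit (4.85% and 0.595% of all genes), at a median difference of 0.21. Without the arrays high in Ucp1, 2 passed, Sgk1 and Lcn2. Fkbp5 differed by 1.04 and Sgk1 by 0.56 (adjusted p = 0.0275 and 0.0475 in the fit of the 8 arrays), while Tsc22d3, Per1 and Zbtb16 lay at -0.20, 0.18 and 0.13 and did not pass. Of 13 genes of copper handling 2 rose and 2 fell in the fit of the 8 arrays (4.85% and 2.9% of all genes) and none passed with 12. Without the arrays high in Ucp1, Steap2 and Atp7b were the 2 that passed, and Sco1 and Cox17 did not. The metalloreductase Steap2 rose by 0.91 and Sco1 by 0.37, while the copper pump Atp7b fell by 0.62 and the copper chaperone Cox17 fell by 0.58 (adjusted p = 0.00653, 0.0494, 0.0336 and 0.0344, limma).

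On chromosome 8 the order of genes is Nudt21, Ogfod1, Bbs2, Mt4, Mt3, Mt2, Mt1, Nup93, Slc12a3 and Herpud1 in RefSeq. Mt4 and Mt3 lie beside Mt2 and differed by -0.12 and -0.29. On the other side of Mt1, Nup93, a nucleoporin, rose by 0.81 in both fits (adjusted p = 0.0364 with 12 arrays, limma), and of the remaining neighbours only Ogfod1 passed, in the fit of the 8 arrays (0.36, adjusted p = 0.0353).

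The 3 arrays of O3-exposed db/db mice given anti-IL-17A did not read alike for these genes. Replicate 1 read 11.44 for Mt2, 9.66 for Mt1, 6.82 for Slc39a14, 7.60 for Mtf1 and 10.64 for Slc39a8, and for 5 of 7 members (Mt2, Mt3, Mtf1, Slc39a14 and Slc39a8) it lay above every db/db isotype O3 array. Replicate 4 read 11.13, 9.53, 6.01, 7.22 and 10.48 for the same genes, each within the range of the isotype O3 arrays. Replicate 2 read 8.69 for Mt2, inside the air range of 7.76 to 9.20, and 7.65 for Mt1, below every air array.

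In the same replicate Slc39a14 read 4.60, at the level of the highest air array, while Mtf1 (6.91) and Slc39a8 (10.43) were above all air arrays and within the isotype O3 range. The order replicate 1, 4, 2 held for Mt2, Mt1, Slc39a14, Mtf1 and Slc39a8. Slc30a1 did not follow it, with 7.47, 7.90 and 7.81 on replicates 1, 4 and 2, replicate 1 being below all air and isotype O3 arrays. Replicate 2 was also read in other genes. In the fit of the 8 arrays 1012 genes rose without overlap. Replicate 2 lay at or below the highest air array for 427 of them, or 42.2%, with Mt1 and Mt2 included. No isotype O3 array could do so, since the genes were picked for lying above all air arrays there. The share was not counted for the other anti-IL-17A arrays or the WT array, so it does not set replicate 2 apart. The mean ciliated marker signal of replicate 2 was 6.72 and its mean club marker signal 10.49, between those of the isotype O3 and the air arrays. Its mean neutrophil marker signal was 9.09, against 6.70 to 7.58 on isotype O3 arrays, 6.57 to 9.28 on air arrays and 6.39 and 6.66 on anti-IL-17A replicates 1 and 4. Its mean alveolar macrophage marker signal of 9.17 was the highest of the 12 arrays. Its Il6 signal of 5.25 lay between the air range (3.43 to 4.15) and the isotype O3 range (6.66 to 7.86). The part of these differences in the members' values was not tested.

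**Figure D4:**
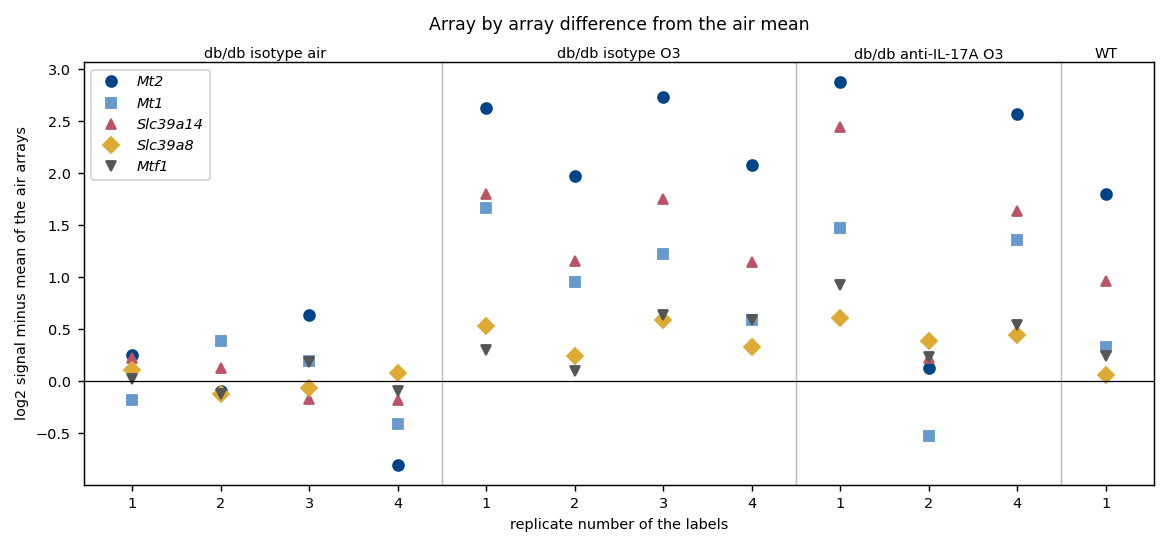
Log2 signal of 5 members on each array minus the mean of the 4 db/db isotype air arrays, by group and replicate number of the labels. On anti-IL-17A replicate 2 Mt2 (8.69) and Slc39a14 (4.60) sit near the air mean and Mt1 (7.65) below it, while replicates 1 and 4 sit with the isotype O3 arrays or above.

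Whether blocking IL-17A altered these genes after O3 was asked by setting the 3 anti-IL-17A arrays against the 4 isotype O3 arrays. No member passed in either fit, and neither did any other gene (0.0% of 21521, limma), although 995 genes had an unadjusted p under 0.05 with 12 arrays and 444 in the fit of both groups (4.62% and 2.06%). Of the members only Mt3 was among the former and none among the latter. Mt2 averaged 10.42 ± 1.51 with anti-IL-17A (SD, n = 3) and 10.91 with the isotype antibody, a difference of -0.49 with a 95% confidence interval of -1.79 to 0.81 in the 12-array fit. For Mt1 the difference was -0.34 (-1.33 to 0.65) and for Slc39a14 -0.03 (-0.95 to 0.89). These intervals are wide, and the signs rested on single arrays. Without anti-IL-17A replicate 2 the differences turned to 0.37 for Mt2, 0.31 for Mt1 and 0.58 for Slc39a14, and without replicate 1, the array that stood apart, they were -1.0, -0.69 and -0.53.

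Mtf1 (0.16) and Slc39a8 (0.06) differed by less than the SD of either group. Slc30a1 (-0.07) differed by less than the SD of the anti-IL-17A arrays (0.23) but by more than that of the isotype O3 arrays (0.05). Mt3 was the 1 member whose arrays did not overlap in this comparison, where 2.63% of all genes were higher without overlap. It read 4.42, 4.26 and 4.18 with anti-IL-17A, each above the isotype O3 arrays and within the air range, by 0.28 (95% confidence interval 0.02 to 0.55, adjusted p = 0.832, limma). The exact permutation p of 0.0571 is the smallest that 3 against 4 arrays gave here.

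Set against air instead, with the same 4 air arrays as above, the anti-IL-17A arrays gave differences of 1.86 for Mt2, 1.44 for Slc39a14, 0.77 for Mt1, 0.57 for Mtf1 and 0.48 for Slc39a8. Side by side, the isotype O3 arrays had given 2.35, 1.47, 1.11, 0.41 and 0.42. Mt3 (-0.01) and Slc30a1 (-0.15) lay near or below their air level. No member passed in either fit, nor did any gene (0.0%, limma), while 3565 genes had an unadjusted p under 0.05 with 12 arrays and 2632 in the fit of both groups (16.6% and 12.2%), among them 4 of 7 members in each fit. Mtf1, Slc39a8 and Slc39a14 were higher without overlap, as were 7.1% of all genes, each with an exact permutation p of 0.0571. For Slc39a14 the gap between the groups was 0.00063. Slc39a8 and Slc39a14 were the 2 members higher on all 7 db/db O3 arrays, with either antibody, than on any air array, as were 3.26% of all genes. With array weights 5 of 7 members rose, as did 16.1% of all genes. Replicate 2 decided these calls as well: without it, 5 of 7 members rose in the 12-array fit (8.36% of all genes did) and 4 of 7 in the fit of both groups (4.13%), with Mt2 at 2.73 and Slc39a14 at 2.04 (adjusted p = 0.00329 and 0.00302 with the 12-array fit, limma).

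The single WT array after O3 gave no test, and it has no WT air array beside it. It read 10.37 for Mt2 and 5.34 for Slc39a14, between the air and the isotype O3 ranges of db/db mice in both genes. Mt1 (8.51) and Slc39a8 (10.10) lay within the db/db air range, Mtf1 (6.92) within the O3 range, Slc30a1 (7.60) below every db/db isotype array and Mt3 (4.35) within the air range. For 5 of 7 members the WT array lay below every db/db isotype O3 array.

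The genes whose signals ran most like those of the members over the 12 arrays were ranked by Pearson correlation among 20322 genes, as a description. The arrays share their exposure, so any gene that differed after O3 has part of this likeness in common. Mt2 ran most like Gclc (r = 0.983), followed by Pus7 (0.979), Mal (0.976) and Clip4 (0.974). Mt1 ran most like the chloride transporter gene Clcn6 (0.967), the kinase Sgk1 (0.945), Plaur, the urokinase receptor (0.938), and Tnfrsf12a, the receptor of TWEAK (0.934). The pair of metallothioneins correlated at 0.901, and Mt1 stood only at rank 174 among the genes most like Mt2.

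Slc39a14 ran with Il4ra, the interleukin-4 receptor alpha chain (0.982), Krt18, an epithelial keratin (0.976), the chemokine Cxcl14 (0.975) and Ptges, a prostaglandin E synthase (0.974), and with Mt2 at 0.943. Slc39a8 ran with Arf2 (0.961), Msantd3 (0.953), Serpina3f (0.938) and Manbal (0.935). Mtf1 correlated at 0.814 with Mt2, 0.830 with Slc39a14, 0.799 with Slc39a8 and 0.648 with Mt1. Slc30a1 correlated below 0 with each of Mt1, Mt2, Slc39a8 and Slc39a14 (-0.25 to -0.52), and Mt3 did too (-0.22 to -0.42).

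Mt4, the metallothionein of stratified squamous epithelia, was not among the 7 genes but completes the family. It read 3.75 to 4.09 on 10 arrays, 7.96 on air replicate 3 and 7.59 on O3 replicate 4. Both arrays were among those high in Ucp1, while anti-IL-17A replicate 1, the third such array, read 3.96. Krt13 and Krt4, keratins of squamous epithelium that were picked after the Mt4 values had been seen, read 10.33 and 10.42 on air replicate 3 and 10.64 and 10.75 on O3 replicate 4. On the other 10 arrays they read 3.85 to 6.13 and 3.66 to 5.91. The basal keratin Krt5 read 8.16 and 8.36 on these arrays and 3.98 to 5.82 on the rest. Of the 7 members, Mt3 had its lowest signal of the group on both of these arrays, and its difference between O3 and air without them was -0.26 (adjusted p = 0.209 in the fit of both groups, limma).

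**Figure D5:**
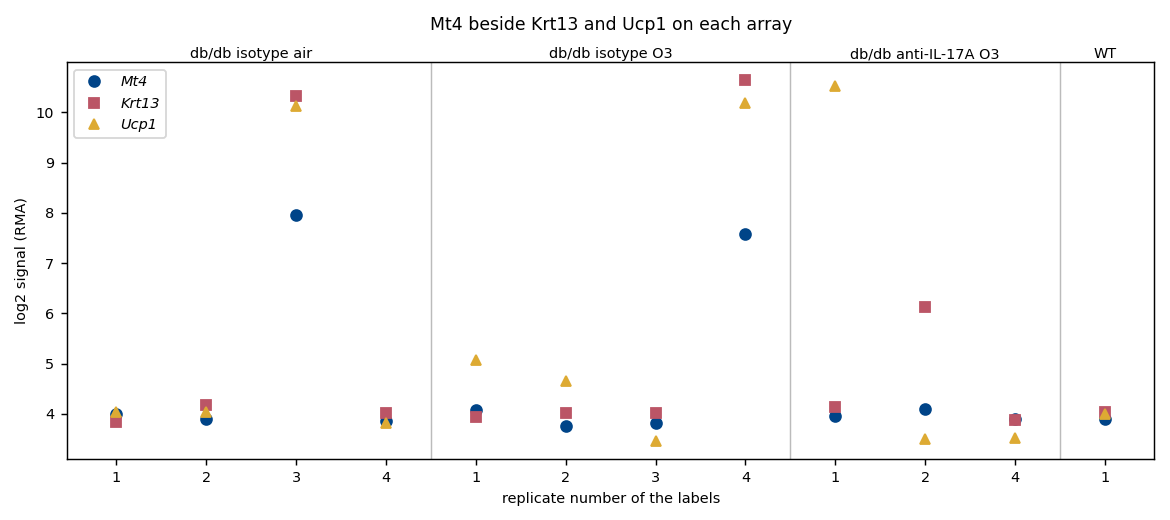
Log2 signal of Mt4, the squamous keratin Krt13 and the brown fat marker Ucp1 on each of the 12 arrays, by group and replicate number. Mt4 and Krt13 are high together on air replicate 3 (7.96 and 10.33) and O3 replicate 4 (7.59 and 10.64), and Ucp1 is high on these and on anti-IL-17A replicate 1.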

How the data were processed

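The sources name oligo, RMA and limma without versions. The authors deposited log2 signals of 35556 probe sets made by RMA, which subtracts background, gives all arrays one distribution and summarises probes. Both deposited tables hold the same signals (largest difference 0). One also holds the authors' own comparison statistics, which were not used. Symbols were compared with the array annotation and 374 probe sets whose names conflicted were left out, which gave 21521 genes, 1 probe set each, with no filter on dim signals. limma version 3.58.1 in R version 4.3.3 was fitted to all 12 arrays with a mean for each condition, which left 8 residual degrees of freedom. Two-sided p values were adjusted over all genes by Benjamini-Hochberg, with 0.05 as the threshold. The fit of only the groups compared was an alternative, as were other normalizations, filters, variance models, array weights, the replicate number as a block and each array left out. For single genes the means were also permuted exactly between groups (70 splits for 4 against 4 arrays, 35 for 3 against 4). The procedure was tested on simulated data. Genes named are all 7 members, list genes that passed either fit (at most 6 per list), the transporters with the highest signal and the 4 genes most correlated with each member that passed; a few list genes that did not pass, the neighbours on chromosome 8 and the keratins were chosen after their values were seen. The members and all lists were chosen with earlier results of these data known. The number of arrays limits the precision.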

Additional observations from a re-analysis of the deposited data

Results flagged for a closer look

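Within groups of 4 arrays, 3 of 58 groups examined (metallothionein and zinc transporter genes in the air and the isotype O3 arrays) had 1 array far from the others by Dixon's criterion, which chance gives in about 1 in 20 groups. Mt4 read 7.96 on air replicate 3, against 3.86 to 4.0 on the other air arrays. It read 7.59 on O3 replicate 4, against 3.75 to 4.09 on the other isotype O3 arrays. Slc30a1 read 8.07 on air replicate 4, against 7.81 to 7.82 on the other air arrays. Without that array the difference of Slc30a1 between O3 and air was -0.02.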

How the results depend on the processing

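The direction of every member's difference between O3 and air was the same under all alternatives that gave a value (29 for Mt3, which the filter on the dimmest 40% of probe sets left out, and 30 for the others). The calls were not. With 12 arrays no member passed. Array weights gave 5 members (adjusted p = 0.0269 for Mt1, 0.00602 for Mt2, 0.0352 for Mtf1, 0.0128 for Slc39a8 and 0.00534 for Slc39a14), and the fit of both groups gave 4 (0.0297 for Mt1, 0.0037 for Mt2, 0.0357 for Slc39a8 and 0.00296 for Slc39a14). That fit without the arrays high in Ucp1 gave 3 (0.0316 for Mt1, 0.00643 for Mt2 and 0.00894 for Slc39a14). Without anti-IL-17A replicate 1, which stood apart, the 12-array design gave 3 (0.0362 for Mt2, 0.0433 for Slc39a8 and 0.0323 for Slc39a14). A threshold of 0.1 gave 2, Mt2 and Slc39a8. With 1 array left out, 0 members passed with the other arrays of all groups and 2 to 5 in the fit of both groups. Of all 21521 genes, 0 to 11 rose and 0 to 3 fell in the former. In the latter 409 to 1815 rose and 315 to 855 fell, the most without O3 replicate 2. In the latter, adjusted p ran from 0.0182 to 0.0859 for Mt1, 0.00436 to 0.0175 for Mt2, 0.0268 to 0.231 for Mtf1, 0.0186 to 0.0968 for Slc39a8 and 0.00301 to 0.0125 for Slc39a14, and over all groups from 0.260 to 0.453, 0.0999 to 0.213, 0.167 to 0.535, 0.0787 to 0.231 and 0.121 to 0.268.

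With the replicate number as a block, which the labels give no ground to treat as pairing, no member passed either (adjusted p = 0.0648 for Mt2 after O3) and no call of a member changed. Deviations from the group means of same-numbered arrays correlated at -0.41 to 0.29 for O3 and air (different numbers -0.56 to 0.70), at -0.13 to 0.44 for anti-IL-17A and isotype O3 (-0.45 to 0.22) and at -0.17 to 0.12 for anti-IL-17A and air (-0.30 to 0.27).

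Directions against the isotype O3 arrays often turned, none near the threshold. Slc39a14 turned with quantile normalization (adjusted p = 0.985), subtraction of array medians (0.997) and array weights (0.983). With array weights Mt1 (0.960), Slc30a1 (0.746) and Slc39a8 (0.967) turned too. Slc30a1 and Slc39a8 turned without the arrays high in Ucp1 (0.9998 in both fits), and they and Mtf1 turned in the fit of both groups without anti-IL-17A replicate 1 (0.99996). With single arrays left out, adjusted p ran from 0.596 for Mt1, 0.588 for Mt2, 0.377 for Mtf1, 0.599 for Slc30a1, 0.699 for Slc39a8 and 0.336 for Slc39a14 up to 0.99996 for each. Against air, Mt3 kept its direction in 17 of 27 alternatives, and in 3 of 7 fits with 1 array left out under either design. Quantile normalization (0.758) and array medians (0.775) were among those that turned it. Adjusted p for Mt3 with 1 array left out ran from 0.845 to 0.996. Slc30a1 turned with array weights (0.893). In that comparison 5 members passed with array weights, and 0 to 5 with 1 array left out, the 5, and 4 in the fit of both groups, being without anti-IL-17A replicate 2. The causes of these shifts were not tested.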
